A study of Mus musculus with 4 samples.

Results

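The 2 wild-type (WT) cultures of mouse embryonic fibroblasts (MEFs) in this series, labelled CycG1+/+ and CycG2+/+, were compared with each other gene by gene. Each had been the WT control of a knockout culture. The 2 cultures were 2 of 4 in the series, and their RNA filled 4 of 8 channels, because each array carried knockout RNA in one dye and WT RNA in the other and the dyes Cy3 and Cy5 were exchanged on a second array. Of 41174 gene and transcript probes on the array, 26035 (63.2%) were kept, because their signal was well above background in both dyes in at least 1 of the cultures. No measured difference entered that choice.

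MEFs are connective-tissue cells that grow out of a minced embryo. A culture therefore holds whatever mesenchyme the dissection took, and it can hold epithelium-like cells such as mesothelium, the sheet that lines the body cavities. Fibroblasts keep part of the positional code of the place they came from: cells of the trunk and limbs express Hox genes according to their place along the body, whereas mesenchyme of the face and front of the head expresses few Hox genes and instead homeobox genes of the Alx, Pitx, Dlx and Msx families. The p53 pathway answers DNA damage and stress, and transcripts of the Cdkn2a locus, which restrains growth through the p53 and Rb pathways, are known to accumulate as MEFs are passaged.

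Both cultures carried intact cyclin G genes on a C57BL/6J background according to the strain label (the source name of the CycG2+/+ pair writes C57BL/7J), and RNA was taken in logarithmic growth in medium with serum. The knockout RNA hybridised beside them came from CycG1-/- and CycG2-/- MEFs. The comparison made here asks how far the control cultures of the 2 knockouts differed from each other. The labels do not say which parts of the embryos were grown, how often the cells were passaged, or whether each culture came from 1 embryo or several. The deposited data carry codes beginning with PDL that differ between the WT cultures, but the sources used here do not define them and they were not used, so the part of passage in any difference was not tested.

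There was 1 culture per WT, so the difference has no replicate check and was not tested. Levels are log2 signal above local background, made comparable by quantile normalisation of both WT channels of a dye. A difference is the CycG2+/+ level minus the CycG1+/+ level within a dye, averaged over Cy3 and Cy5, and the ± value is the SD over the 2 dyes (n = 2), which measures labelling and array only. A gene was called when it differed by at least 2-fold (a log2 difference of 1) the same way in both dyes. Higher and lower below mean in CycG2+/+ relative to CycG1+/+. Where a culture was not well above background in either dye, only a lower limit of the fold is given, counted from its own signal or the dimmest one well above background in that channel, whichever was higher. These dimmest levels were 3.76 in Cy3 and 3.41 in Cy5 for CycG1+/+, leaving out 1 Cy5 probe whose net signal had been set to 1, and 4.07 and 3.23 for CycG2+/+. In a bulk culture, fewer cells of a type and less RNA per cell cannot be told apart.

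The targeted genes were read first. Ccng1, which encodes cyclin G1 and is a transcriptional target of p53, had a level of 12.998 in Cy3 and 14.27 in Cy5 in CycG1+/+ and 10.40 and 11.70 in CycG2+/+. The CycG2+/+ culture was lower in both dyes, by -2.58 ± 0.02, and the second Ccng1 probe read -2.27. On a scale set over all 4 cultures Ccng1 was at 13.65 in CycG1+/+, 6.26 in CycG1-/-, 11.06 in CycG2+/+ and 13.75 in the RNA labelled CycG2-/-. The knockout RNA was far below every other culture for this gene. Ccng2, which encodes cyclin G2, had a level of 9.88 in Cy3 and 11.38 in Cy5 in CycG1+/+ and 11.18 and 12.70 in CycG2+/+. The CycG2+/+ culture was higher, by 1.31 ± 0.01. On the scale of all 4 cultures Ccng2 was at 10.64, 11.003, 11.95 and 12.06 in the same order, so the RNA labelled CycG2-/- was not lower than its WT. Whether the probe lies outside the deleted part was not tested, and that RNA is called by its label throughout.

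Of the 26035 probes kept, 4293 (16.5%) were called. They were split almost evenly, 2192 (8.42%) higher and 2101 (8.07%) lower. At least 4-fold in both dyes, 1438 probes (5.52%) were called, 646 higher and 792 lower, and past 16-fold 117 were higher and 223 lower. With 1 probe per gene, the brightest, 3076 of 16915 genes (18.2%) were called, 1631 higher (9.64%) and 1445 lower (8.54%), around a median difference of 0.05. These gene shares are the background for every list below. Differences in the 2 dyes had a correlation across probes of 0.942 (probes are not independent replicates) and a median SD of 0.074, but 1547 probes passed 2-fold in 1 dye only, and 2 passed it in opposite directions. Between 26297 and 27737 of 43379 gene spots were well above background in the 4 WT channels and none was saturated. Net signals under 1 were set to 1, at 1102 and 1584 spots of the Cy5 channels and at 1 and 0 of the Cy3 channels, so a dim gene can differ more in Cy5. With a background correction that keeps dim signals away from 0 (normexp), 2691 probes were called, 1329 higher and 1362 lower.

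**Figure D1:**
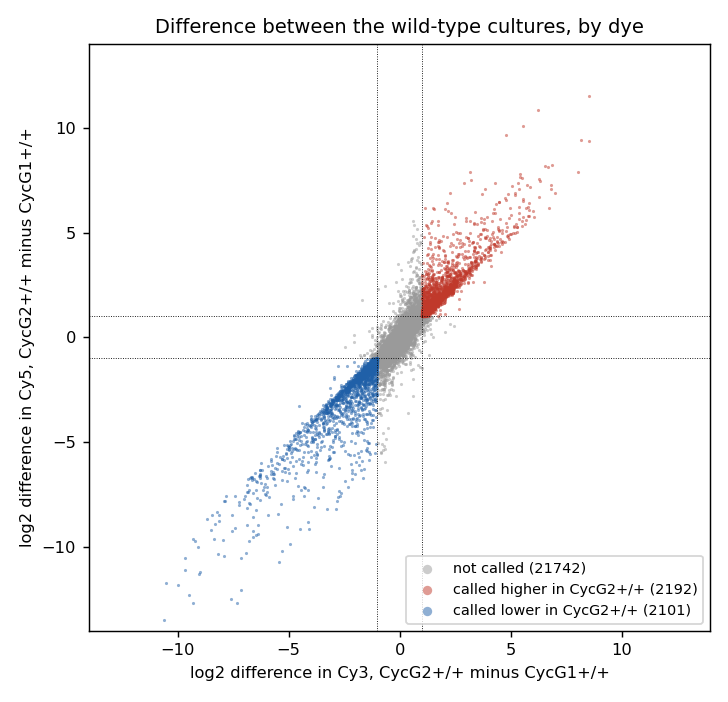
Log2 difference between the WT cultures (CycG2+/+ minus CycG1+/+) of the 26035 probes kept, measured in Cy3 on the horizontal axis and in Cy5 on the vertical axis, with dotted lines at 2-fold. The 2192 probes called higher (red) and the 2101 called lower (blue) lie along a diagonal, and most of those well off it differ more in Cy5.

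The same procedure was run on all 4 cultures. Normalised over the 4 channels of a dye, the WT cultures differed past 2-fold at 16.6% of probes kept. CycG1-/- differed from its own WT at 8.77% and the RNA labelled CycG2-/- from its own WT at 10.2%. Across the pairs, the RNA labelled CycG2-/- differed from CycG1+/+ at 17.3% and from CycG1-/- at 13.5%, and CycG1-/- from CycG2+/+ at 11.7%. These comparisons share WT channels and each rests on 1 culture per side.

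**Figure D2:**
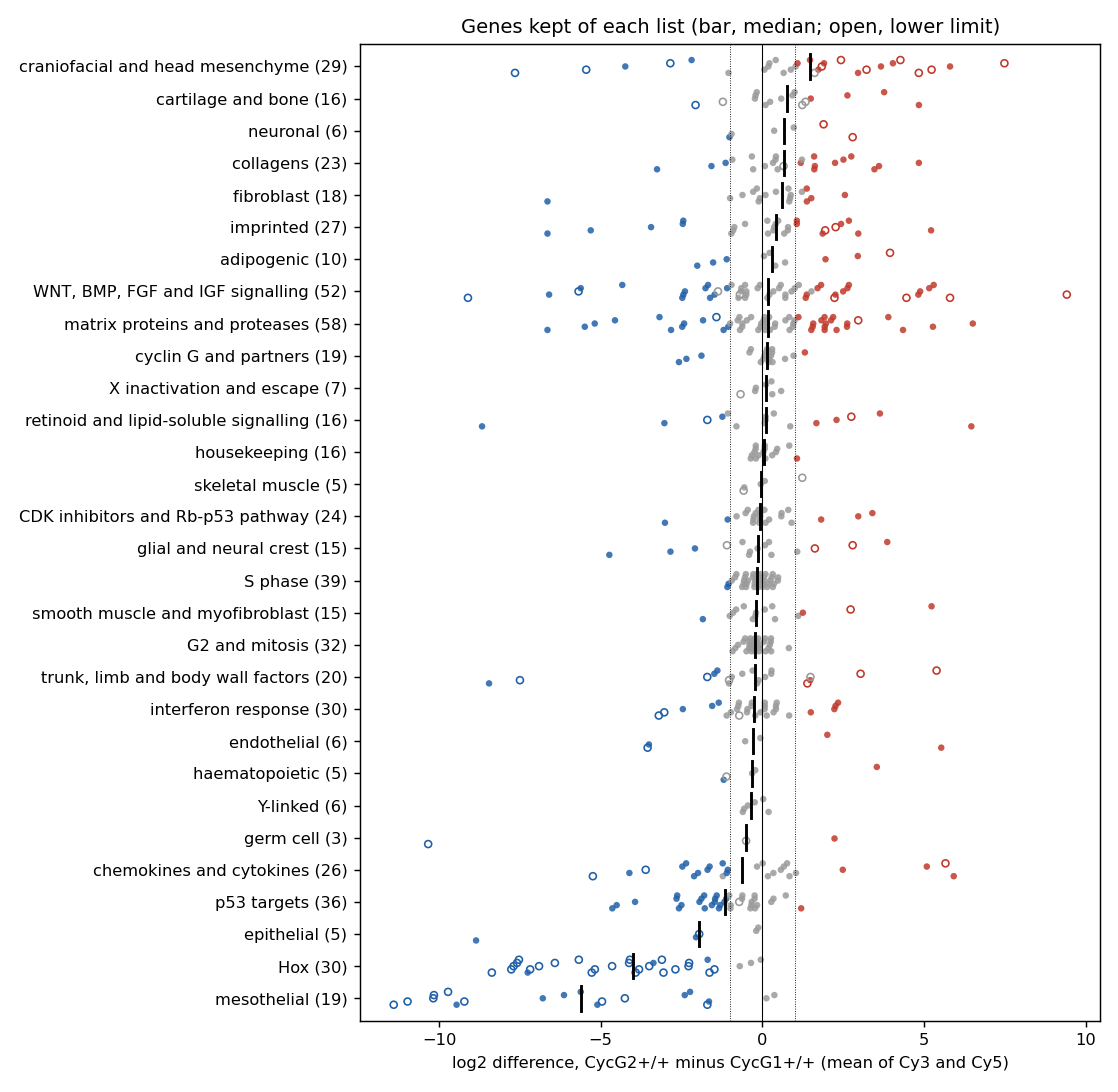
Each point is a gene kept of the list on the vertical axis (number of genes in brackets) and its log2 difference, CycG2+/+ minus CycG1+/+, averaged over both dyes. Red and blue points were called higher and lower, open points are lower limits, and black bars are medians with those limits, from -5.62 for the mesothelial list to 1.47 for the head mesenchyme list.

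Fibroblast markers were present in both cultures. All 18 genes of the fibroblast list were well above background in both, their summed log2 signal was 18.7 to 20.4 in CycG1+/+ and 18.999 to 20.6 in CycG2+/+, and the median difference was 0.61. Collagen I and III, vimentin, Thy1, Twist1 and Twist2 were not called on their brightest probes, though 2 of 3 Col1a1 probes and 1 of 2 Col1a2 probes were called higher. Of 18 genes, 4 were called higher and 1 lower. Pdgfrb, a receptor for platelet-derived growth factor, was at 11.20 in Cy3 and 12.65 in Cy5 in CycG1+/+ and 13.74 and 15.20 in CycG2+/+, and was higher by 2.55 ± 0.01. Pdgfra, its sister receptor, differed by 1.37 ± 0.05, Prrx1, a homeobox gene of limb and head mesenchyme, by 1.37 ± 0.06, and Lum, the matrix proteoglycan lumican, by 1.51 ± 0.34. The gene called lower was Dcn, which encodes decorin, another small proteoglycan that binds collagen. Its level was 14.91 in Cy3 and 16.18 in Cy5 in CycG1+/+ and 8.28 and 9.52 in CycG2+/+. Decorin was over 6 log2 units weaker in CycG2+/+ in both dyes, a difference of -6.65 ± 0.01, and its other probe read -2.30. Lum lost its call under normexp and under loess normalisation.

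The CycG1+/+ culture held a mesothelial set that was at background or lower in the CycG2+/+ culture. Of 19 genes kept of 20 on the list, 17 were called lower and none higher, against 8.54% of all genes called lower. The median difference was -5.73, or -5.62 with the dim genes at their limits, against 0.05 over all genes, and -3.75 over the 10 genes above background in both cultures. The other 9 were kept through CycG1+/+ alone, where they were high. Their direction followed from the filter, so the count called lower rests partly on it. All 19 were well above background in CycG1+/+ and 10 in CycG2+/+, and the summed log2 signal of the list was 17.7 to 18.9 in the first and 12.02 to 13.3 in the second. In CycG1-/- 18 were well above background and in the RNA labelled CycG2-/- 8.

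Wt1, the transcription factor that defines mesothelium and kidney precursors, had a level of 12.76 in Cy3 and 13.98 in Cy5 in CycG1+/+ and 3.45 and 1.31 in CycG2+/+. CycG2+/+ was not well above background in either dye, so the fold is at least 843. Uroplakins Upk3b and Upk1b, membrane proteins of urothelium and mesothelium, were at least 2700.2-fold and 2007-fold lower, Lrrn4, a leucine-rich membrane protein, at least 1156-fold, the membrane glycoprotein Gpm6a at least 1141-fold, and Muc16, the mucin known as CA125, at least 595-fold. Of 2 Muc16 probes 1 was called. Muc16 falls outside the rule for naming genes and was chosen after its value was seen. None of these was well above background in CycG2+/+ in either dye. Msln, the surface protein mesothelin, was at 16.39 in Cy3 and 17.41 in Cy5 in CycG1+/+ and 9.55 and 10.66 in CycG2+/+. It was thus still measured in CycG2+/+, -6.79 ± 0.06 on the log2 scale below the other culture.

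Some keratins, the filament proteins of epithelia, divided the cultures the same way. Krt18, of simple epithelia, was at 14.18 in Cy3 and 15.64 in Cy5 in CycG1+/+ and 4.90 and 6.02 in CycG2+/+. Krt14, of basal epidermis, was at 13.06 in Cy3 and 14.38 in Cy5 in CycG1+/+ and 4.55 and 5.18 in CycG2+/+. Both were far weaker in CycG2+/+ in both dyes, with differences of -9.46 ± 0.24 and -8.85 ± 0.49. They were the largest keratin differences among the genes listed. Outside the naming rule and chosen after their values were seen, Krt19 was -1.65 and Krt5, at -0.19, was not called. Of 14 genes of the general epithelial list, 5 were kept and 3 of them called lower: Krt14, Cdh1 (-2.06), which encodes E-cadherin, and Krt15, at least 3.88-fold. Epcam, Grhl2, Esrp1 and Trp63, which define epithelium, were not kept. A gene was not kept when it was not well above background in both dyes in either culture. It was also not kept when its spots were all flagged as outliers in a channel, so not kept does not by itself mean not expressed. Cdh1 and Krt15 lost their calls under normexp and loess.

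Markers of other cell types gave few genes. Of 13 endothelial markers 6 were kept, and Pecam1, Cdh5, Tek, Tie1 and Vwf, which define endothelium, were not. Flt1, a receptor for vascular growth factors, was 5.53 ± 0.15 higher and Egfl7 2.004 ± 0.04 higher, whereas Emcn, endomucin, was -3.51 and Kdr, the other main vascular growth factor receptor, at least 11.7-fold lower. Of 13 haematopoietic markers 5 were kept, without Ptprc. Lyz2, lysozyme, was at 4.96 in Cy3 and 5.80 in Cy5 in CycG1+/+ and 8.34 and 9.49 in CycG2+/+, a difference of 3.53 ± 0.22. Cd14 was -1.20, a call lost under normexp and loess. Of 12 skeletal muscle markers 5 were kept and none called, and Myod1 and Myog were not kept.

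The germ cell list turned on Ddx4, the vasa helicase of germ cells. Of 14 genes 3 were kept. Ddx4 had a level of 13.63 in Cy3 and 14.93 in Cy5 in CycG1+/+ and 3.95 and 3.81 in CycG2+/+, at least 1291-fold lower in CycG2+/+, where it was not above background. Dazl, Dppa3, Pou5f1 and Nanog, which also mark germ or pluripotent cells, were not kept. Dppa5a was 2.21 ± 0.25 higher. Among 15 glial and neural crest genes 3 were called each way, with Tfap2a, a crest transcription factor, 3.86 ± 0.66 higher and Pou3f1 and the myelin gene Mbp -4.73 and -2.84. Erbb3 was -2.09, Gap43 at least 6.90-fold higher and Tfap2b at least 3.07-fold. In the neuronal list, 2 of 6 genes kept were higher (Gap43, and Stmn2 at least 3.70-fold) and 1 lower (Tubb3, -1.02). Erbb3, Tfap2b, Stmn2 and Tubb3 lost their calls under normexp and loess, and Gap43 under normexp. Whether cells of these types were in the cultures was not tested.

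Hox genes were almost all lower in CycG2+/+. Of 38 Hox genes on the array 30 were kept, and all 30 were well above background in CycG1+/+ but 4 in CycG2+/+. Of the 30, 27 were called lower and none higher, against 8.54% of all genes called lower. In 24 the CycG2+/+ culture was above background in neither dye, so that the folds are lower limits, from at least 2.80 to at least 330-fold. The median difference was -5.07, or -4.01 with those genes at their limits. Most of these genes were kept through CycG1+/+ alone, where they were high, and over the 5 Hox genes above background in both cultures on some probe the median was -0.36. It also depended on how dim signals were handled: it was -3.57 in Cy3 alone and -6.43 in Cy5 alone, and -2.08 under normexp and -2.07 under loess, where Hoxa6, Hoxc8, Hoxc13, Hoxd1 and Hoxd10 lost their calls, as did Hoxb3 and Hoxb8 under normexp alone. No Hox gene called reversed its direction under these alternatives.

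All 4 clusters took part. In the Hoxa cluster on chromosome 6, 8 of 10 genes kept were called lower, in Hoxb on chromosome 11 8 of 8, in Hoxc on chromosome 15 5 of 6 and in Hoxd on chromosome 2 6 of 6. Hoxb2, an anterior member, was at 11.35 in Cy3 and 12.68 in Cy5 in CycG1+/+ and 4.05 and 0.00 in CycG2+/+, at least 329.9-fold lower. Hoxc9, of the trunk, was at 10.49 in Cy3 and 11.86 in Cy5 in CycG1+/+ and 3.59 and 1.57 in CycG2+/+, at least 185-fold lower. Each was not well above background in CycG2+/+ in either dye. The limits were 218-fold for Hoxd4, 207-fold for Hoxd8, 192-fold for Hoxb7, 145-fold for Hoxb9 and 120.0-fold for Hoxb6 (a second Hoxb6 probe, not called, read -0.34). Posterior members ran the same way: Hoxa10 was at least 38.8-fold lower, Hoxc10 at least 17.1-fold, Hoxa11 at least 8.34-fold, Hoxd10 at least 4.88-fold and Hoxc13 at least 4.82-fold.

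Of the 30 Hox genes kept, 3 were not called. Hoxc4, for example, was at 5.37 in Cy3 and 6.65 in Cy5 in CycG1+/+ and 5.32 and 6.59 in CycG2+/+, a difference of -0.05. Hoxa3 differed by -0.36 ± 0.06 on its brightest probe, while its other probe, at -3.10, was called lower. Hoxb3, at -1.70 ± 0.41 on its brightest probe, was called and still above background in CycG2+/+, and its other probe, at -7.40, was also called lower. The remaining Hox genes on the array, among them Hoxa13, Hoxb1, Hoxb13 and Hoxd13, were not kept by the filter.

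The knockout RNA beside each WT is shown for the same genes. CycG1-/- had 28 of the 30 Hox genes well above background and the RNA labelled CycG2-/- 8, with 21 above background in neither dye. The median Hox level over the 4-culture scale was 7.74 in CycG1+/+, 8.38 in CycG1-/-, 3.48 in CycG2+/+ and 3.66 in the RNA labelled CycG2-/-. By this median each knockout RNA lay nearer its own WT than the WT cultures lay to each other.

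**Figure D3:**
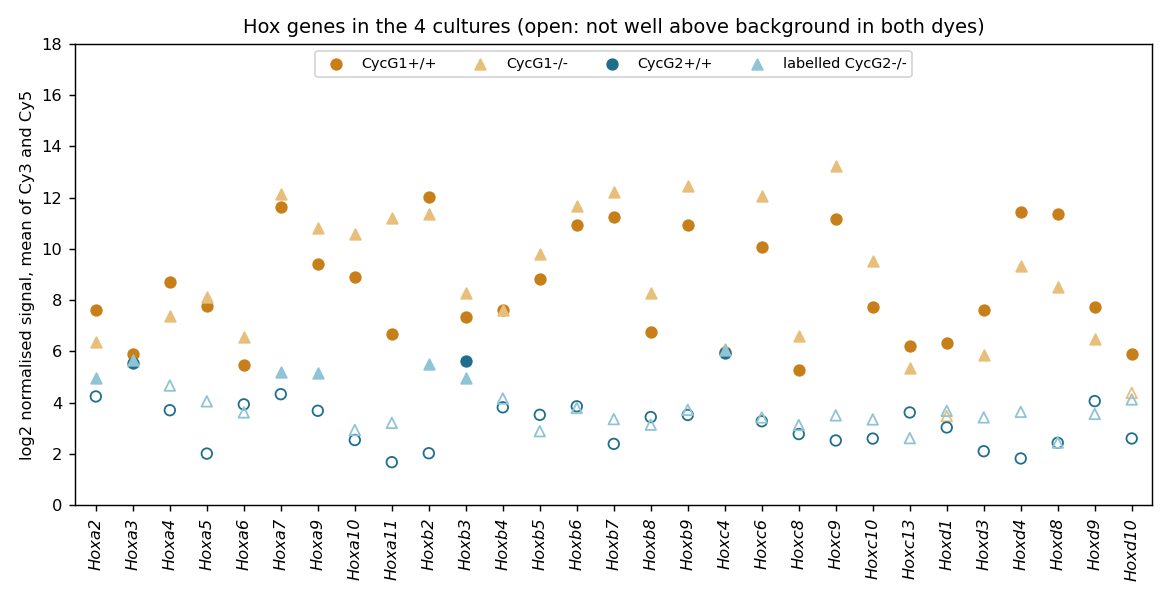
Level of 29 of the 30 Hox genes kept (log2 normalised signal, mean of Cy3 and Cy5, scaled over all 4 cultures) in the WT cultures (circles) and the knockout RNA (triangles), open where the gene was not well above background in both dyes. CycG1+/+ and CycG1-/- lie above CycG2+/+ and the RNA labelled CycG2-/- for most genes, with medians over all 30 of 7.74, 8.38, 3.48 and 3.66.

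Homeobox and related genes of the head mesenchyme ran mostly the other way. Of 29 genes kept, 15 were called higher, against 9.64% of all genes, and 5 lower, around a median difference of 1.47 (0.93 under normexp and 0.95 under loess). Of the 29, 11 were kept through 1 culture alone, which largely fixed their direction. Over the genes above background in both cultures the median was 1.05. Alx1, needed for the midface, had a level of 3.65 in Cy3 and 3.62 in Cy5 in CycG1+/+ and 10.51 and 11.83 in CycG2+/+, at least 178-fold higher. Alx4 was at 5.68 in Cy3 and 6.87 in Cy5 in CycG1+/+ and 11.47 and 12.68 in CycG2+/+, 5.80 ± 0.02 higher on its brightest probe, while its other probe read 0.62. Gsc, goosecoid, was at least 9.29-fold higher. Outside the naming rule and chosen after their values were seen, Pax3 was 4.03 ± 0.05 higher and Msx2 at least 28.5-fold.

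Not every head gene followed. Dlx1 (0.21) and Dlx2 (0.18), likewise chosen after their values were seen, were not called. Pitx1, a homeobox gene of the first arch and of the hindlimb, was at 10.52 in Cy3 and 12.08 in Cy5 in CycG1+/+ and 3.66 and 3.12 in CycG2+/+, at least 201-fold lower. Sim2 was at least 43.7-fold lower, Hand2, of the heart, limb and arches, at least 7.21-fold, and Dlx4 was -4.24. The summed log2 signal of the list was 13.6 to 14.9 in CycG1+/+ and 14.8 to 16.1 in CycG2+/+. In CycG1-/- Pitx1 was at 13.63 on the 4-culture scale and Alx4 at 10.46, so both were well above background in CycG1-/-. The median level of the head list was 6.99 in CycG1+/+, 7.97 in CycG1-/-, 8.68 in CycG2+/+ and 6.08 in the RNA labelled CycG2-/-. By this median, unlike the Hox median, each knockout RNA lay nearer the other WT than its own.

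Transcription factors of the trunk, limbs and body wall were divided, with 4 of 20 called higher and 5 lower around a median of -0.24. The share called was 45.0%, against 18.2% over all genes. Gata6, a factor of endoderm, heart and mesothelium, was at 13.09 in Cy3 and 14.46 in Cy5 in CycG1+/+ and 4.64 and 6.01 in CycG2+/+, a difference of -8.45 that was the same in both dyes to 2 decimals, and 2 of its 3 probes were called. Zic1 was at least 181-fold lower, Tcf21 at least 3.26-fold and Tbx1 -1.49. In the other direction Tbx20 was at least 41.7-fold higher, Meox1 at least 8.18-fold and Meox2 at least 2.62-fold, both factors of the somites, and Meis1, a partner of Hox proteins, was 1.48 ± 0.12 higher. Tcf21, Tbx1 and Meox2 lost their calls under normexp and loess.

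Retinoic acid sets Hox expression along the embryo, and the genes that make, bind and break it down differed in both directions. Of 16 kept, 5 were called higher and 4 lower, 56.2% against 18.2% over all genes. Aldh1a1, which makes retinoic acid, had a level of 15.35 in Cy3 and 16.73 in Cy5 in CycG1+/+ and 6.70 and 8.05 in CycG2+/+. The difference was -8.67 ± 0.02, with the gene well above background in both cultures. Aldh1a2, the main embryonic enzyme, was at least 3.26-fold lower, the receptor gene Rarb -3.03 and Stra6, which takes up retinol, -1.24. The third enzyme, Aldh1a3, was 3.63 ± 0.20 higher. The binding protein gene Crabp1 was at 7.34 in Cy3 and 8.94 in Cy5 in CycG1+/+ and 14.05 and 15.14 in CycG2+/+, 6.46 ± 0.37 higher, Crabp2 at least 6.71-fold, and Cyp26b1, which degrades retinoic acid, 2.29 ± 0.14 higher. Aldh1a2 lost its call under normexp and loess and Crabp2 under normexp.

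Among genes well above background in both cultures, the 12 with the largest positive difference were Igsf10, Lrrc17, Wscd2, Ccn5, Lrrc15, Cacna1g, Crabp1, Omd, Rgcc, Adcy7, Stc2 and Itm2a, from 8.96 down to 5.95. Here the probe with the largest difference stands for the gene. Igsf10, an immunoglobulin-domain matrix protein whose probe lies at chr3:59404664-59404686 on the minus strand (mm8, the build of the array design; no annotation of that build was used here to place it in an exon), was at 5.12 in Cy3 and 5.47 in Cy5 in CycG1+/+ and 13.66 and 14.85 in CycG2+/+. Its other probe differed by 2.46. Lrrc17, a secreted leucine-rich protein (chr5:21087623-21087682), was at 6.72 in Cy3 and 8.05 in Cy5 in CycG1+/+ and 14.74 and 15.93 in CycG2+/+, a difference of 7.95 ± 0.10. Omd encodes osteomodulin of bone matrix and differed by 6.12 ± 0.43, Ccn5 a matricellular protein (6.96 ± 0.18), Lrrc15 a membrane protein of activated fibroblasts (6.96 ± 0.08), and Cacna1g a T-type calcium channel (6.89 ± 0.83). Adcy7, an adenylyl cyclase, differed by 6.03 ± 0.02, Rgcc by 6.03 ± 0.69 and the secreted glycoprotein Stc2 by 5.99 ± 1.13. For Wscd2, 7.05 ± 0.34, 1 of 3 probes read 0.45.

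The largest lower limits in this direction belonged to genes that CycG1+/+ did not express above background. Chrdl1, a secreted inhibitor of bone morphogenetic proteins (BMPs; chrX:138544835-138544894), was at 3.93 in Cy3 and 2.16 in Cy5 in CycG1+/+ and 12.48 and 13.67 in CycG2+/+, at least 678-fold higher. Sobp was at least 428-fold higher, followed by Alx1, given above, and Ackr3, an atypical chemokine receptor, at least 169-fold.

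The 12 lowest among genes above background in both cultures were Lsr, Krt18, Krt14, Aldh1a1, Cyp2s1, Gata6, Smpd3, Crb2, Crip1, Foxa2, Bst1 and Mpzl2, from -9.46 to -7.52. Lsr, a lipoprotein receptor of tricellular junctions in epithelia (chr7:30666615-30666761), was at 14.90 in Cy3 and 16.04 in Cy5 in CycG1+/+ and 5.70 and 6.33 in CycG2+/+. Crb2, which sets apical polarity in epithelia, was at 12.11 in Cy3 and 13.39 in Cy5 in CycG1+/+ and 4.58 and 4.91 in CycG2+/+, a difference of -8.01 ± 0.67. Cyp2s1, a cytochrome P450, differed by -8.46 ± 0.46 and Smpd3, a neutral sphingomyelinase, by -8.30 ± 0.24. Crip1, a LIM-domain protein, differed by -7.87 ± 0.08, Bst1, the ectoenzyme CD157, by -7.56 ± 0.43, and the adhesion gene Mpzl2 by -7.52 ± 0.91. Foxa2, a pioneer factor of endoderm and floor plate, was at 13.06 in Cy3 and 14.29 in Cy5 in CycG1+/+ and 5.26 and 6.75 in CycG2+/+. It was low in CycG2+/+ alone of the 4 cultures, at 13.69, 12.58, 5.98 and 13.06 on the 4-culture scale in CycG1+/+, CycG1-/-, CycG2+/+ and the RNA labelled CycG2-/-.

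Target genes of p53 were mostly lower in CycG2+/+. Of 36 targets kept, 19 were called lower and 1 higher, against 8.54% and 9.64% of all genes. Of the 36, 32 lay below 0, and the median difference was -1.15 against 0.05 over all genes. Mdm2, the ligase that degrades p53 and is itself a p53 target, was at 12.50 in Cy3 and 13.71 in Cy5 in CycG1+/+ and 10.54 and 11.90 in CycG2+/+, lower by 1.89 ± 0.11 on the log2 scale, with a second probe at -1.85. Perp, a membrane protein of apoptosis and desmosomes, was at 12.53 in Cy3 and 13.81 in Cy5 in CycG1+/+ and 7.98 and 9.07 in CycG2+/+. Ddit4l, a repressor of mTOR signalling, was at 11.34 in Cy3 and 12.61 in Cy5 in CycG1+/+ and 6.84 and 8.09 in CycG2+/+. Both were over 4 log2 units lower in both dyes, by -4.64 ± 0.13 and -4.51 ± 0.01, and all 3 Ddit4l probes were called. Eda2r, a death receptor of the TNF family, differed by -3.94 ± 0.05 and Btg2, an antiproliferative gene, by -2.66 ± 0.08, with all 3 probes of each called. Sesn1 was the gene called higher, 1.19 ± 0.01, on 1 of its 3 probes. Trp53 itself, which encodes p53, was -1.08 ± 0.09 on its brightest probe and -0.03 on the other, and its call was lost under normexp and loess.

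Cdkn1a, the CDK inhibitor p21 and the best known p53 target, lies outside the naming rule and is named for its promoter, after its value was seen. Its level was 11.69 in Cy3 and 12.99 in Cy5 in CycG1+/+ and 9.06 and 10.61 in CycG2+/+, a difference of -2.51 ± 0.18 that was the same way in both dyes. It is shown because among the 30 p53 target genes kept that had a promoter in RefSeq, it was the only gene whose promoter window (250 bases before to 50 after a start) held a spelling of the paired cores of a p53 site, CATG, any 6 bases, then CATG, searched on both strands. The 30 bases around it lie at chr17:29090923-29090952 on the plus strand of GRCm38.p6, 48 to 35 bases before 1 of 2 annotated starts, with the motif in capitals.
Cdkn1a: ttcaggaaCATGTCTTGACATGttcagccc
Of 40 promoters of 30 p53 target genes 1 held the motif, against 0.712% of 32851 promoters of all genes and 0.297% of those of genes kept. It was in 7 of 1469 promoters of genes called higher and 6 of 1257 of those called lower, 0.477% each. These counts are too few to tell whether the letters go with a direction. The match is a description of letters and says nothing about binding.

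The knockout RNA gives the p53 targets a wider frame. On the 4-culture scale Cdkn1a was at 12.35 in CycG1+/+, 11.65 in CycG1-/-, 9.83 in CycG2+/+ and 12.70 in the RNA labelled CycG2-/-. Mdm2 was at 13.11, 12.26, 11.22 and 12.96, and Eda2r at 10.44, 9.16, 6.48 and 10.40. The CycG2+/+ culture was the lowest of the 4 for each. Over the 36 targets the median level was 11.8, 10.8, 10.2 and 11.3 in that order. Each difference between a knockout RNA and its WT shares that WT channel with the comparison made here.

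**Figure D4:**
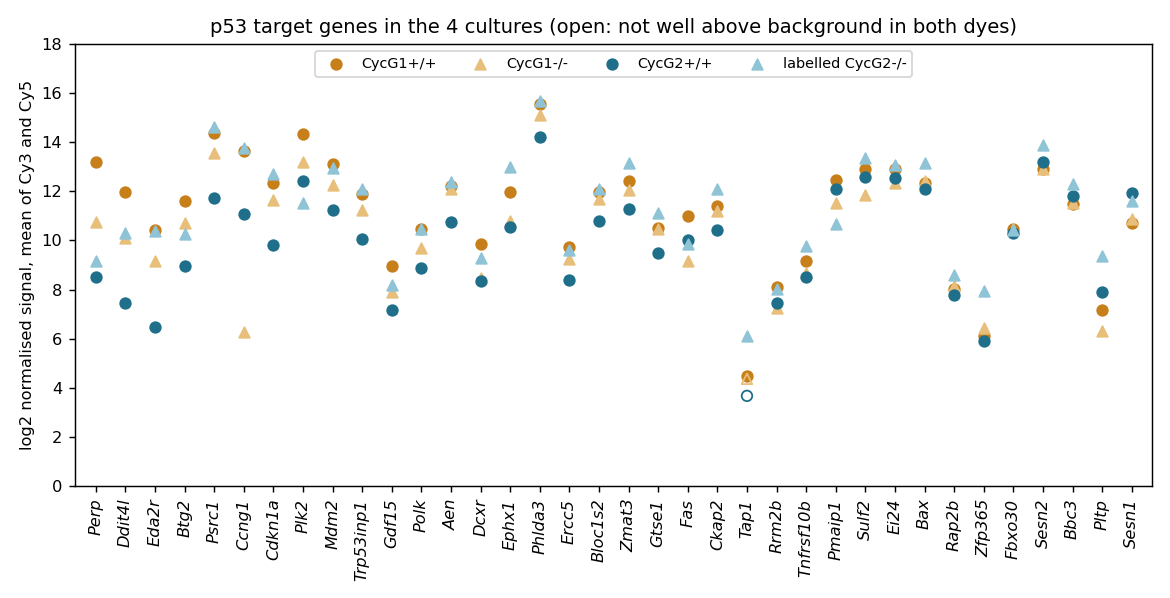
Level of the 36 p53 target genes kept (log2 normalised signal, mean of Cy3 and Cy5, scaled over all 4 cultures), ordered by the difference CycG2+/+ minus CycG1+/+, with circles for WT, triangles for knockout RNA and open symbols where not well above background in both dyes. The CycG2+/+ culture is below CycG1+/+ for 32 of 36 genes, from Perp at -4.64 to Sesn1 at 1.19.

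Among other inhibitors of the cell cycle, Cdkn2a and Cdkn1c were higher in CycG2+/+, and the remaining CDK inhibitors of the list were not called. Cdkn2a, whose locus encodes p16Ink4a and p19Arf, was at 8.95 in Cy3 and 10.30 in Cy5 in CycG1+/+ and 12.37 and 13.67 in CycG2+/+, 3.40 ± 0.04 higher. Its level over the 4 cultures was 9.62, 10.70, 13.03 and 9.56, highest in CycG2+/+. Cdkn1c, the imprinted inhibitor p57, was 2.96 ± 0.47 higher and Cbx7, a Polycomb protein that represses the Cdkn2a locus, 1.81 ± 0.02 higher. Mycn was at 10.66 in Cy3 and 12.15 in Cy5 in CycG1+/+ and 7.68 and 9.11 in CycG2+/+, -3.01 ± 0.04 on the log2 scale. Of 24 genes of this list 3 were called higher and 2 lower, around a median of -0.08. The share called, 20.8%, was near the 18.2% over all genes, so the list as a whole did not stand out.

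Genes of proliferation differed little. Of 39 S phase genes none was called higher and 2 lower, Rrm1 (-1.08 ± 0.00), a subunit of ribonucleotide reductase, and Ccne2 (-1.05 ± 0.02), cyclin E2, around a median of -0.17, with the call of Ccne2 lost under normexp and loess. Of 32 genes of G2 phase and mitosis none was called, and they lay between -0.93 and 0.81 around a median of -0.22. These shares of 5.13% and 0% called stood beside 18.2% over all genes. Among 19 cyclin G genes and partners, mostly subunits of protein phosphatase 2A, Ppp2r5b, a regulatory subunit, was at 13.56 in Cy3 and 14.67 in Cy5 in CycG1+/+ and 11.22 and 12.30 in CycG2+/+, lower by 2.35 ± 0.02. Ccng1, Mdm2 and Ppp2r5b were the 3 called lower and Ccng2 the 1 called higher. The share called in this list, 21.1%, was near the 18.2% over all genes, so it did not stand out.

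Matrix genes were called in large numbers in both directions. Of 23 collagen genes kept 10 were higher and 3 lower, a share of 56.5% against 18.2% over all genes, median 0.67. Col11a1, a collagen of cartilage, was at 8.98 in Cy3 and 10.29 in Cy5 in CycG1+/+ and 13.84 and 15.10 in CycG2+/+, 4.83 ± 0.04 higher on its brightest probe and called on all 3. Col8a2 was 3.60 ± 0.22, Col12a1 3.46 ± 0.02 and Col6a3 2.74 ± 0.24 higher. The 3 lower genes were all collagen IV chains, the collagens of basement membrane: Col4a6 at -3.26 ± 0.05, Col4a1 at -1.58 ± 0.10 and Col4a2 at -1.14 ± 0.10. Of their probes, 2 of 3 were called for Col4a6 and 1 of 2 for Col4a2. Not every collagen IV chain followed. Outside the naming rule and chosen after their values were seen, Col4a5 (-0.33) was not called, and Col4a4 was called on 1 of 2 probes (-1.47 and 0.47). Of 58 other matrix genes 19 were higher and 12 lower, a share of 53.4%. Mfap4, of elastic microfibrils, was at 4.25 in Cy3 and 4.90 in Cy5 in CycG1+/+ and 10.54 and 11.61 in CycG2+/+, 6.50 ± 0.29 higher. Aspn (asporin) was 5.27 ± 0.02, Lama4 4.34 ± 0.15 and Fbn2 (fibrillin 2) 3.89 ± 0.25 higher, while the laminin gene Lama5 was -5.49 ± 0.01, Spon2 -5.19 ± 0.06 and Adamts2, which trims procollagen, -4.56 ± 0.18. The laminin chains Lama4, of mesenchyme and vessels, and Lama5, of epithelial basement membrane, thus lay on opposite sides.

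Cartilage, bone and smooth muscle genes were mostly higher where called, but the smooth muscle list as a whole was not higher. Of 16 cartilage and bone genes 4 were higher and 1 lower, median 0.75, with Spp1 (osteopontin) at 11.17 in Cy3 and 13.24 in Cy5 in CycG1+/+ and 15.29 and 16.64 in CycG2+/+, 3.76 ± 0.51 higher, Sox9, the master factor of cartilage, 2.63 ± 0.06 and Phex 1.49 ± 0.02 higher, and Matn3 at least 4.20-fold lower. Of 15 smooth muscle genes 3 were higher and 1 lower (26.7%, against 18.2% over all genes), and 8 lay below 0 around a median of -0.20. Itga8 was 5.23 ± 0.10 and Synpo2 1.25 ± 0.11 higher, Myocd, the coactivator of smooth muscle genes, at least 6.61-fold higher, and Mylk -1.84. Of 10 adipogenic genes 3 went each way: Klf15 at least 15.4-fold higher, Plin4 2.95 ± 0.29 and Fabp4 1.95 ± 0.02, against Lpl -2.02, Pparg -1.53 and Cebpb -1.11. Of 3 probes each, 2 were called for Itga8, Sox9 and Fabp4 and 1 for Synpo2, and 1 of 2 for Klf15. Phex, Matn3 and Synpo2 lost their calls under normexp and loess, Myocd under normexp and Cebpb under loess.

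Secreted signals of the WNT, BMP, FGF and IGF families were called at 29 of 52 genes, 16 higher and 13 lower. The share was 55.8%, against 18.2% over all genes. Beside Chrdl1, Dkk3 and Dkk2, genes of the secreted Dickkopf family, were higher. Dkk3 was at 6.03 in Cy3 and 7.34 in Cy5 in CycG1+/+ and 11.33 and 12.63 in CycG2+/+, a difference of 5.29, and Dkk2 differed by 5.15 ± 0.16. The ligand Wnt10b was at least 55.6-fold higher. In the other direction Gdf6, a BMP of joints, was at 12.06 in Cy3 and 13.51 in Cy5 in CycG1+/+ and 4.14 and 3.06 in CycG2+/+, at least 550.3-fold lower, the ligand Wnt2 at least 51.5-fold, the WNT inhibitor Sfrp4 -6.60 ± 0.49 and the WNT agonist Rspo1 -5.62 ± 0.07. Both agonists and antagonists were found on each side.

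Chemokines and cytokines were more often lower (12 of 26) than higher (4), median -0.62. The share called was 61.5%, against 18.2% over all genes. Il1rl1, the receptor for interleukin 33, was at 9.31 in Cy3 and 10.72 in Cy5 in CycG1+/+ and 15.37 and 16.49 in CycG2+/+. Its ligand gene Il33 was at 8.80 in Cy3 and 10.20 in Cy5 in CycG1+/+ and 4.34 and 4.17 in CycG2+/+. The receptor was 5.91 ± 0.20 higher and the ligand at least 37.9-fold lower. Cxcl5 was 5.08 ± 0.15 higher, Ppbp at least 50.4-fold and Vegfc 2.48 ± 0.12, while Cxcl16 was -4.11 ± 0.06, Ccl20 -2.48 ± 0.18 and Csf3, granulocyte colony-stimulating factor, at least 12.2-fold lower. Interferon-response genes went both ways, 30.0% called against 18.2% over all genes. Of 30, 4 were higher (Gbp2 2.34, Gbp3 2.26, Ifit3 2.22, Rtp4 1.49). Another 5 were lower, including the viral RNA sensor Ifih1 at -2.46, Oasl2 at -1.56, and Oas1a and Oasl1 at least 9.23-fold and 8.20-fold.

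Imprinted genes, expressed from 1 parental copy, were called at 14 of 27 (51.9%, against 18.2% over all genes), 9 higher and 5 lower. Igf2, the fetal growth factor, was at 9.51 in Cy3 and 10.65 in Cy5 in CycG1+/+ and 12.26 and 13.25 in CycG2+/+. Its neighbour H19 was at 6.82 in Cy3 and 8.15 in Cy5 in CycG1+/+ and 9.20 and 10.63 in CycG2+/+. The pair were higher by 2.67 ± 0.11 and 2.43 ± 0.06, each on both probes. Plagl1 was 5.21 ± 0.11 higher. Lower were Peg3 at -5.31 ± 0.28, Dlk1, a Notch-like inhibitor of adipocyte formation, at -3.44 ± 0.42, and Ndn (necdin) at -2.46 ± 0.25.

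Sex-linked genes were alike in the WT cultures. All 6 Y-linked genes kept of 9 on the list were well above background in both and none was called. Eif2s3y was at 11.55 in Cy3 and 13.11 in Cy5 in CycG1+/+ and 11.13 and 12.62 in CycG2+/+, a difference of -0.45 ± 0.05. Ddx3y differed by -0.57 ± 0.08, Kdm5d by -0.61 ± 0.08, Uty by -0.24 ± 0.17, Zfy1 by 0.02 ± 0.05 and Zfy2 by 0.19 ± 0.28. Xist, the RNA that coats the inactive X, was at 4.82 in Cy3 and 5.64 in Cy5 in CycG1+/+ and 4.59 and 5.42 in CycG2+/+. It was low in both, with a difference of -0.23. In the knockout RNA 2 of the 6 Y-linked genes were well above background in each, and Xist was at 14.11 in CycG1-/- and 13.71 in the RNA labelled CycG2-/- on the 4-culture scale, so each WT and its knockout differed in these genes. The other X-linked genes of the list lay between -0.68 (Tsix, dim in CycG2+/+) and 0.58 (Kdm6a), with Ddx3x at -0.20, Eif2s3x at 0.28, Kdm5c at 0.30 and Ftx at 0.11. Of 16 housekeeping genes 1 was called, Gusb at 1.07 ± 0.02 (0.93 and not called with median centring), around a median of 0.05.

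Differences were not spread evenly over chromosomes. With 1 probe per gene, the median difference was 0.37 on chromosome 9 (945 genes, 73.3% above 0), 0.36 on chromosome 5 (1069 genes, 74.0%), 0.34 on the X (588 genes, 68.0%) and 0.31 on chromosome 3 (862 genes, 69.3%). It was -0.24 on chromosome 19 (596 genes, 32.2% above 0) and -0.23 on chromosome 10 (813 genes, 34.4%). Over all genes the median was 0.05. These shifts were well under 2-fold, and their signs were the same under all 9 alternatives run. Genes of a chromosome are not replicates, so no test is given.

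**Figure D5:**
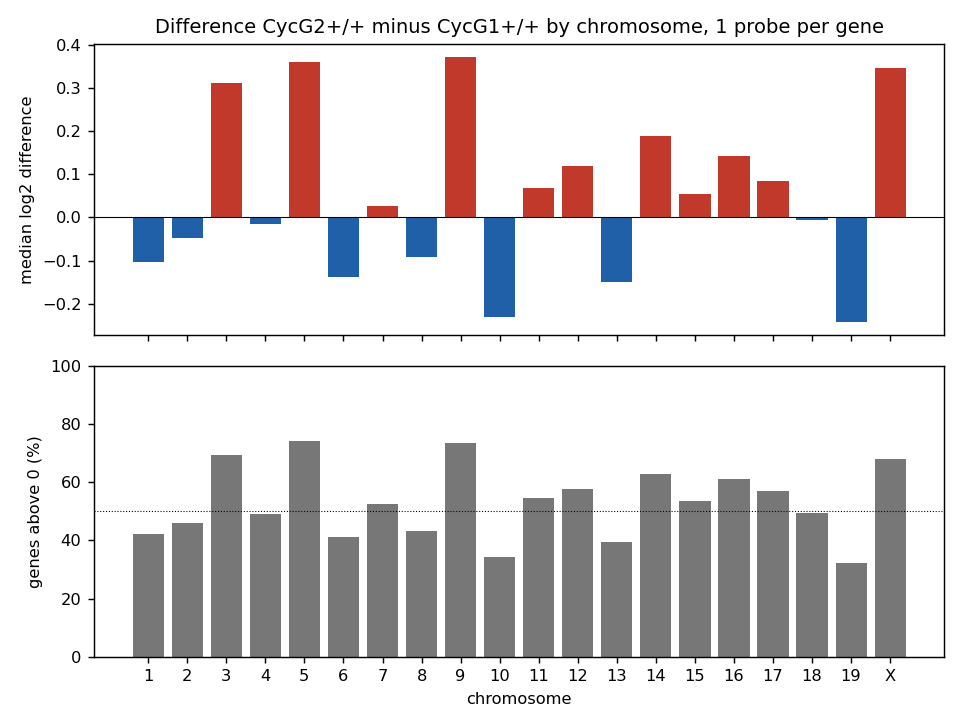
Median log2 difference, CycG2+/+ minus CycG1+/+, of the genes of each chromosome (upper panel, red above and blue below 0) and the share of its genes with a difference above 0 (lower panel, dotted line at 50%). Chromosomes 9, 5, X and 3 stand highest, at 0.37, 0.36, 0.34 and 0.31, and chromosomes 19 and 10 lowest, at -0.24 and -0.23.

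Promoter composition was read from the RefSeq windows of 10830 genes kept. The median number of CG dinucleotides per 300 bases was 16 for promoters of genes called higher, 14 for those called lower and 20 for those not called. TATAAA in the 250 bases before the start, on the gene's strand, was found in 5.17%, 5.73% and 4.22% of them, against 7.59% of all promoters. None of 18 Hox promoters held it. Promoters of genes called in either direction thus had fewer CG dinucleotides than those of genes not called, while the shares with TATAAA differed by under 2 percentage points.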

How the data were processed

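RNA from MEFs was hybridised to 4 arrays of 2 colours, per the labels, on the same slide and in the same scan, with the dyes exchanged on the second array of each knockout. The values used were intensities of single spots, as deposited, which the authors read with Agilent Feature Extraction (the file headers give version 10.5.1.1, the labels 9.1). Mean intensity minus local median background was taken for gene spots without an outlier flag, floored at 1, put on the log2 scale, quantile-normalised over the 2 WT channels of a dye (limma 3.58.1, R 4.3.3) and averaged per probe. Probes were kept when a share of at least 0.5 of their spots was flagged well above background in both dyes in at least 1 culture; 93 more met this but had every spot flagged as an outlier in a channel. Each WT was 1 culture with 2 channels, dye swaps being technical, so the errors given cover the spread between dyes and not between cultures, and differences were called without a test. The normalisation and the call were tried on simulated data in which only brighter probes were changed, so genes at background and their limits were not covered.

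Probes were named through RefSeq (GRCm38.p6) by accession (24375), symbol (6301) or older symbol (2426), and 8072 kept the name in the file. Named genes were Ccng1, Ccng2 and the sex-linked lists, the 12 largest differences each way above background in both cultures, the 4 largest limits each way, up to 4 called genes each way in each of 30 lists, and any Hox gene. The members and lists were chosen with earlier results of these data known, so no list is independent evidence of its direction. The 4-culture levels were quantile-normalised over the 4 channels of a dye. Background correction, normalisation, the filter on dim probes, the threshold and each dye alone were varied. Expression ratios computed by the scanner software were not used. Figures were drawn with matplotlib 3.10.9. A few genes of the lists, counted in them, are not reported here by name.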

Additional observations from a re-analysis of the deposited data

How the results depend on the processing

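Called probes numbered 2691 with normexp background correction (1329 higher, 1362 lower) and 1438 at 4-fold (646 higher, 792 lower), and 1442 were higher with loess and Aquantile normalisation, against 4293, 2192 and 2101. The counts stayed within 1.5 times the reported ones with all 4 channels of a dye normalised together, median centring, the scanner software's processed signal, either filter and either dye alone. The median of the mesothelial list was -5.06 with normexp, -6.20 with processed signal, -5.10 with loess, -3.75 above background in both cultures and -5.62 with genes at their limit. The Hox median was -2.08 with normexp, -2.07 with loess, -0.36 above background in both cultures (5 genes), -3.52 without a filter, -6.43 to -3.57 with 1 dye and -4.01 with genes at their limit. The head mesenchyme median was 0.93 with normexp, 0.95 with loess, 1.05 above background in both cultures, 0.95 without a filter and 1.01 to 1.597 with 1 dye. The p53 target median was -1.29 with median centring, -1.13 with normexp, -1.25 with processed signal, -1.13 with loess, -1.18 above background in both cultures and -1.07 without a filter. Processed signal also removed the call of Ccne2. Of 193 genes given by the naming rule and the text's choice of Cdkn1a, 0 reversed under these alternatives (above background in both cultures, 124 had a value), and 27 of 177 calls were lost with normexp, 23 with loess, 1 with median centring and 1 with processed signal. The cause was not tested. Dim genes limit the precision: split into 5 equal groups by brightness, probes had a median SD between dyes of 0.228 in the dimmest group and 0.0537 in the brightest. No paired analysis was possible because each WT was 1 culture and the result comes from no test. Setting genes at their limit was chosen after seeing the data.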
